A study of Bos taurus with 4 samples.

Results

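The ribosomal and translation genes described here are the large subunit genes RPL6, RPL13A, RPL28 and RPLP1, the small subunit gene RPSA, the ribosome-bound RACK1 and the poly(A) binding PABPC1, followed in neutrophils from the blood of cows around calving. They were chosen by name, with earlier results of these data known. The members are all elements that the annotation of the cDNA array, with its names updated by gene ID, assigns to these genes. An element is a set of 3 consecutive spots that carries 1 gene name. There are 9 such elements (27 spots) among the 1296 elements (3888 spots) of the array, of which 486 carry the name of 1 gene and together stand for 444 genes. RPL6 and RPL13A have 2 elements each and the other 5 genes 1 each. Elements of the same gene are told apart below by their number in the order of the array's list. RPL6 has elements 240 and 795, and RPL13A elements 173 and 219.

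Ribosomes are built from a small subunit, which reads the mRNA, and a large subunit, which joins the amino acids. In mammals most mRNAs of ribosomal proteins, and that of PABPC1, begin with a tract of pyrimidines through which their translation is switched together by growth and stress signals. Blood neutrophils are short-lived phagocytes with little RNA and few ribosomes compared with their precursors in the bone marrow, where most ribosomal gene expression of the lineage takes place. Genes of this class have many processed copies in mammalian genomes, so a cDNA spot may also bind transcripts of near-identical sequence, and the values of each element carry that uncertainty.

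The samples were RNA pools, each from 4 parturient cows, of neutrophils purified 7 days before parturition (day -7), on the day itself (day 0), 0.25 days after it and 1 day after it. Breed, age and treatment are unknown here, and a pool hides the spread between its cows. The 4 pools were compared on 4 two-channel arrays in a closed loop, each pool once in channel 1 and once in channel 2, and there was 1 pool per day. The arrays are named here by the day in channel 1 and the day in channel 2, as the 0.25/-7, 1/0, -7/1 and 0/0.25 arrays, and values listed without their arrays follow this order. No day was replicated by a second pool, so every test below is about these 4 pools and leaves out the spread between animals. In pooled cells, fewer cells of a type and less RNA per cell cannot be told apart.

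All values are log2 ratios, the mean of the 3 spots of an element with the median element of each array set to 0. The sources used here do not state which channel is the numerator. Channel 1 was put over channel 2 throughout, and signs are reported without calling any day higher or lower. Nor is it stated whether the values are ratios of intensities or of transformed intensities, so a value is not a fold change of a transcript. The SD over all elements was 0.046 on the 0.25/-7 array, 0.018 on the 1/0 array, 0.032 on the -7/1 array and 0.015 on the 0/0.25 array. The signal over background cannot be given, and precision is limited by the number of arrays. The label of neutrophils could not be checked, since 0 of 16 neutrophil markers were among the named elements. Of 58 marker genes of neutrophils, other blood cells and bone marrow precursors, 2 were present. The B cell gene CD79B had ratios of -0.004, -0.005, 0.022 and 0.012 in the order of the arrays above, and the proliferation gene MKI67 had 0.135, -0.008, 0.029 and 0.005. Their part in the results below was not tested.

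Of the 36 values of the translation genes (9 elements on 4 arrays), 34 lay within 0.035 of 0, where 85.0% of all values on the 4 arrays did. By array, 8, 9, 8 and 9 of the 9 elements lay within it, beside 68.5%, 94.4%, 79.8% and 97.2% of all elements. The other 2 were RPL6 element 240 on the 0.25/-7 array (-0.158) and RPL13A element 173 on the -7/1 array (0.060). These were also the only member values outside the 5th to 95th percentile of all elements on their arrays. The limit of 0.035 was not part of the plan. It lies just above the next largest member value by size, that of RPSA on the 0.25/-7 array (-0.033). The shares within it are thus a description and do not show the members to be tighter than other elements. The medians of the 9 elements were -0.005, 0.008, 0.023 and -0.001 in the order of the arrays, beside 0.000 for all elements on each array.

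**Figure D1:**
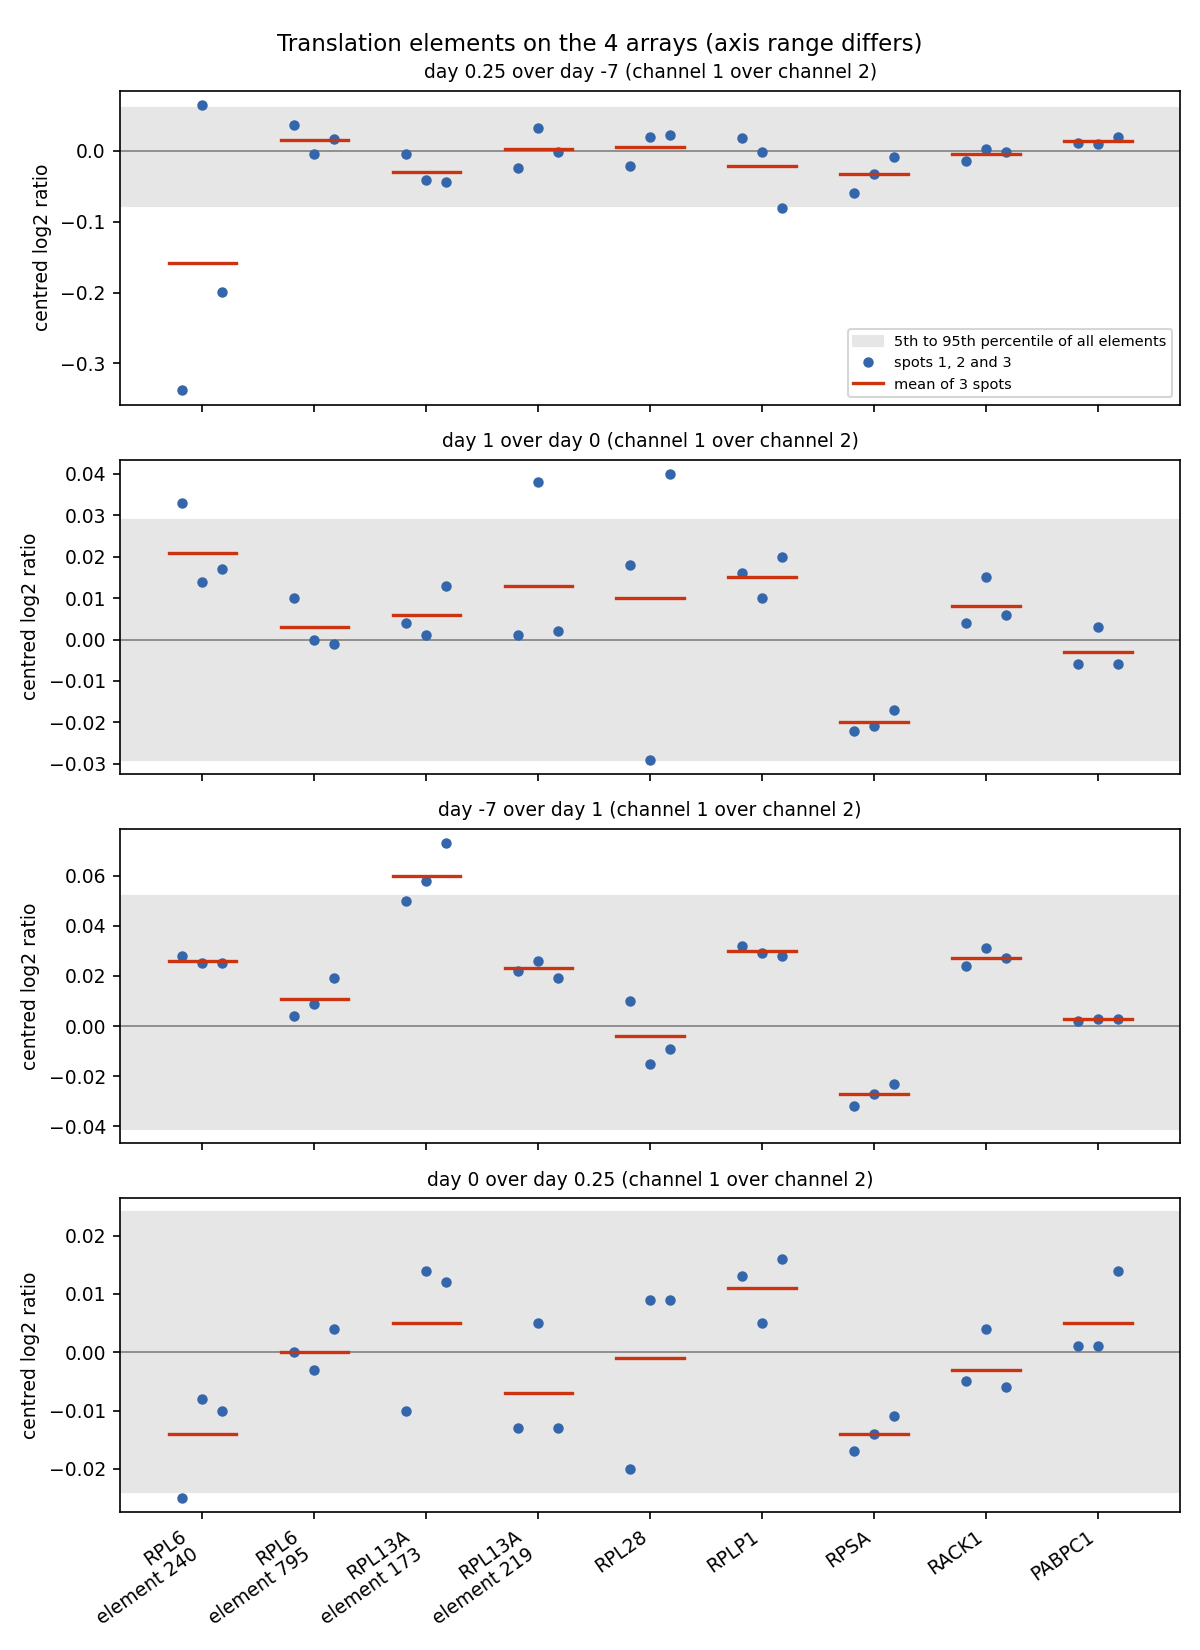
Centred log2 ratio (channel 1 over channel 2) of the 3 spots (points, in the order of their numbers) and their mean (line) for the 9 translation elements, 1 panel per array, with the 5th to 95th percentile of all elements shaded. The axis range differs between panels. The spots of RPL6 element 240 spread from -0.338 to 0.065 on the 0.25/-7 array, while all spots of RPSA lie below 0 on all 4 arrays.

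RPL6 is a protein of the large subunit. Its element 240 had ratios of -0.158 on the 0.25/-7 array, 0.021 on the 1/0 array, 0.026 on the -7/1 array and -0.014 on the 0/0.25 array. The first of these was the 10th lowest of all elements on its array. Its 3 spots read -0.338, 0.065 and -0.199 there, so 1 spot of the 3 had the opposite sign, and their SD of 0.205 was above that of 99.1% of elements. On the other 3 arrays its spots agreed in sign, with an SD of at most 0.010.

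Element 795 of RPL6 gave 0.016, 0.003, 0.011 and 0.000 on the same arrays, at percentiles 50.3 to 71.7 of all elements. The 2 elements differed in sign on the 0.25/-7 array, by 0.174, although the ranges of their spots overlapped there. On the remaining arrays they differed by 0.018, 0.015 and 0.014, and the ranges of their spots did not overlap on any of those 3. Among the 26 genes with exactly 2 elements the median absolute difference on the 0.25/-7 array was 0.039, and 1 gene differed by more than RPL6. On the 1/0 array, the -7/1 array and the 0/0.25 array the medians were 0.017, 0.016 and 0.013, and 10, 13 and 10 genes exceeded RPL6. Both elements had the same sign in 11, 12, 19 and 13 of the 26 genes, in the order of the arrays.

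The nearest profile to each element was sought among the named elements of other genes by the root mean square difference of the ratios over the 4 arrays. Element 240 stood nearest to NARF (0.014), which binds prelamin A, to the tetraspanin CD37 (0.017) and to the inflammatory caspase CASP4 (0.018). These 3 genes had ratios of -0.166, -0.137 and -0.135 on the 0.25/-7 array. Element 795 stood nearest to BOLA-DMA (0.003), a chaperone of MHC class II peptide loading, the transcription elongation cofactor EAF1 (0.005) and the Rab regulator RABGAP1 (0.005). The 2 RPL6 elements were 0.088 apart, and 325 of 483 named elements of other genes were nearer to element 240 than element 795 was. For element 795, 476 of 483 were nearer than element 240 was.

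RPL13A is a large subunit protein that can also leave the ribosome to silence inflammatory mRNAs. Its 2 elements were closer to each other over the loop than those of RPL6. Element 173 gave -0.030, 0.006, 0.060 and 0.005, and element 219 gave 0.002, 0.013, 0.023 and -0.007. Both were positive in all 3 spots on the -7/1 array, from 0.050 to 0.073 for element 173 and from 0.019 to 0.026 for element 219. The elements differed by 0.038 on that array with no overlap of their spots. On the other 3 arrays the spot ranges overlapped, and the differences were 0.032, 0.007 and 0.012. The 2 elements were 0.026 apart over the loop. The median distance to the named elements of other genes was 0.037 from element 173 and 0.024 from element 219. Of 483 such elements, 85 were nearer to element 173 than element 219 was. For element 219, 277 of 483 were nearer than element 173 was. Element 173 stood nearest to CD2BP2 (0.006), the phosphatase subunit PPP2R1A (0.007) and the acid phosphatase ACP5 (0.007). Element 219 stood nearest to the phosphatase catalytic subunit PPP2CA, to PTMA and to RACK1, itself a member (0.005 each).

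RPL28 and RPLP1 are the other large subunit members. RPL28 had ratios of 0.006, 0.010, -0.004 and -0.001. Its spots took both signs on all 4 arrays, with SDs of 0.024, 0.035, 0.013 and 0.017. RPLP1, an acidic protein of the stalk that recruits elongation factors, had ratios of -0.021, 0.015, 0.030 and 0.011. Its spots had 1 sign on the last 3 arrays, whereas on the 0.25/-7 array they read 0.018, -0.001 and -0.080.

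RPSA, a small subunit protein that was first described as a laminin receptor, had negative ratios on every array: -0.033 on the 0.25/-7 array, -0.020 on the 1/0 array, -0.027 on the -7/1 array and -0.014 on the 0/0.25 array. All 12 of its spots were negative, from -0.060 to -0.008 on the first array. The 4 log ratios around the loop add up to 0 whatever the levels in the pools, if the arrays run the same way and carry no channel bias or noise. For RPSA they summed to -0.094, a distance from 0 above that of 88.0% of elements. Of the 1281 elements with 12 spots, 41 (3.2%) had all 12 spots of 1 sign, and RPSA was the 1 member among them. The sum was -0.124 for RPL6 element 240 (percentile 94.6 by size) and between 0.011 and 0.042 for the other 7 elements, beside a median size of 0.038 over all elements.

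RACK1, a scaffold on the small subunit that binds activated protein kinase C, had ratios of -0.005, 0.008, 0.027 and -0.003. Its spots were of 1 sign on the 1/0 array and on the -7/1 array. PABPC1, which coats the poly(A) tail and promotes initiation, had 0.014, -0.003, 0.003 and 0.005. Its ratios spanned 0.017 over the loop, a span above that of 9.3% of elements. RPL28 (0.014, above 5.8%) and RPL6 element 795 (0.016, above 7.6%) spanned less. The spots of PABPC1 were the tightest of the members on the -7/1 array, with an SD of 0.001.

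Differences between pools were fitted over all 4 arrays for each element with limma, from the design of the loop, with p-values adjusted by Benjamini-Hochberg over 1295 elements and a threshold of 0.05. The fit asks which pools differ beyond array error. Its SE draws mostly on the spread of all elements, since each element has 1 residual degree of freedom. It also takes the 4 arrays as equally precise. For day 0.25 against day -7, RPL6 element 240 stood at -0.126 ± 0.027 (SE, adjusted p = 0.0371) and was the 1 of 9 translation elements past the threshold, where 2.01% of all elements passed, 1.08% with a negative value. The ratios of RPL6 element 240 summed to -0.124 around the loop, a misfit about as large as its difference. RPL13A element 173 stood at -0.041 ± 0.023 (adjusted p = 0.559) and RPLP1 at -0.030 ± 0.022 (adjusted p = 0.691). In this comparison the values of RPL13A element 219, RPSA and RACK1 were -0.006, -0.010 and -0.012, and those of RPL6 element 795, RPL28 and PABPC1 were 0.009, 0.004 and 0.009. All of these had a fitted SE of 0.022 to 0.025, with adjusted p from 0.934 to 0.978. In all, 3 elements were positive and 6 negative, with a median of -0.010 beside -0.001 over all elements.

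The call of RPL6 element 240 depended on single spots and on the setting of the fit. It passed with the median of the 3 spots (-0.159, adjusted p = 0.0161) without spot 2 (-0.210, adjusted p = 0.0358) and with the sign of the 1/0 array turned (-0.116, adjusted p = 0.00692), but not without spot 1 (-0.058, adjusted p = 0.256), without spot 3 (-0.111, adjusted p = 0.151), without centring (-0.124, adjusted p = 0.297), with the arrays scaled to equal spread (-0.079, adjusted p = 0.21), with a running median of 27 elements taken off (-0.120, adjusted p = 0.332) or with the arrays weighted by inverse variance (-0.087, adjusted p = 0.388). From the 3 arrays other than the 0.25/-7 array its difference was -0.033, with no test. It did not pass with the sign of another array turned, and stood at 0.110 (adjusted p = 0.752) for the 0.25/-7 array, -0.113 (adjusted p = 0.501) for the -7/1 array and -0.134 (adjusted p = 0.285) for the 0/0.25 array.

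**Figure D2:**
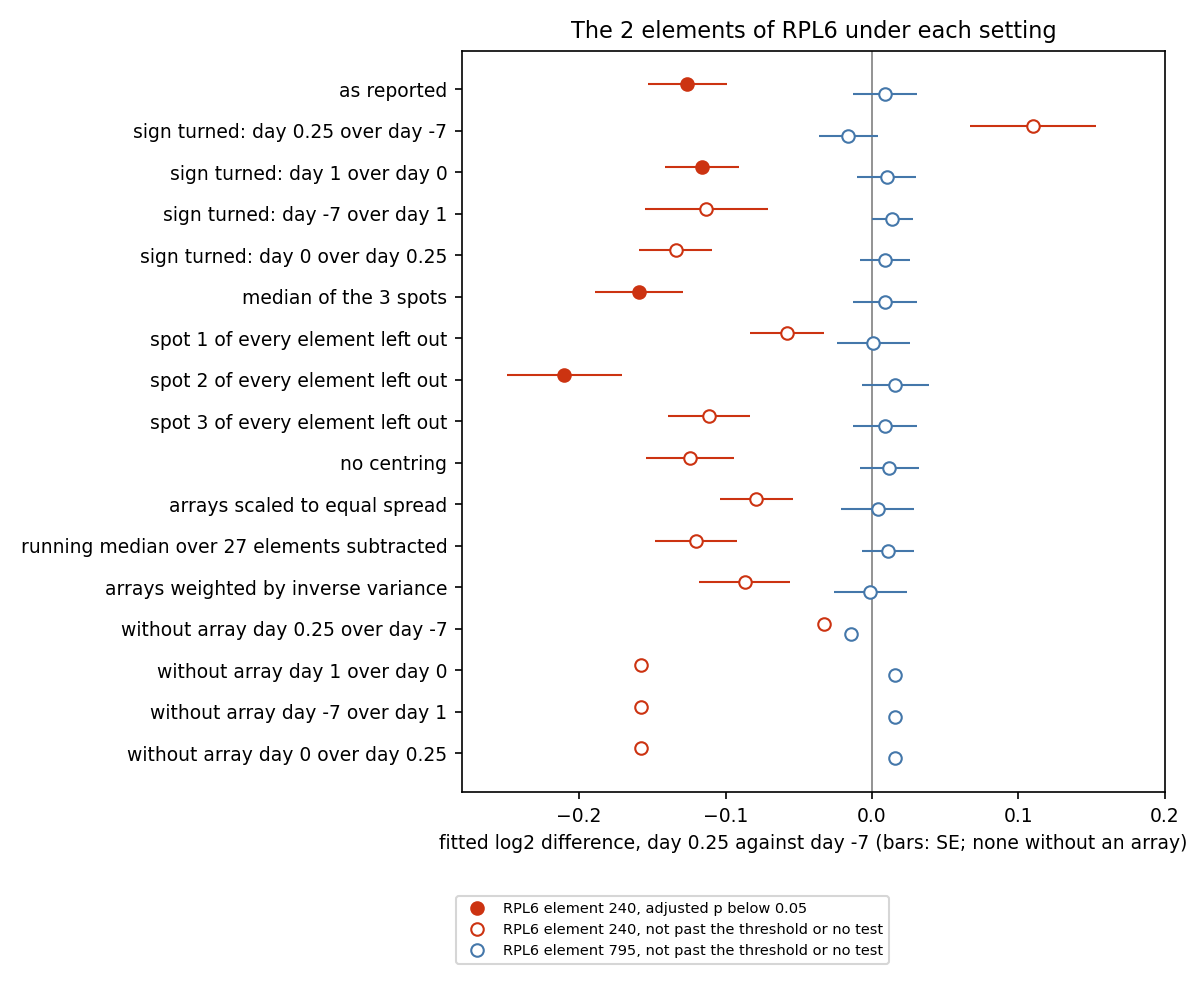
Fitted log2 difference of day 0.25 against day -7 for the 2 elements of RPL6 under each setting of the fit (rows). Bars are the SE of the fit, filled points passed an adjusted p of 0.05, and settings without an array have no test. Element 240 stands at 0.110 with the sign of the 0.25/-7 array turned and between -0.210 and -0.033 in the other settings, and passed as reported and in 3 other settings, while element 795 lies between -0.016 and 0.016.

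For day 0 against day -7, calving against the week before, no array compared the pools directly. None of the 9 elements passed with limma, where 0.309% of all elements did. At an unadjusted p below 0.05 there was 1 of the 9, where 6.02% of all elements were below it. RPL6 element 240 stood at -0.110 ± 0.031 (adjusted p = 0.307), RPL13A element 173 at -0.046 ± 0.026 and RPLP1 at -0.027 ± 0.026. RACK1 had -0.021 and RPL13A element 219 -0.020. The remaining 4 elements lay between 0.000 and 0.010. The median of the 9 was -0.020 beside -0.003 over all elements.

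For day 1 against day -7 none of the 9 passed with limma, again where 0.309% of all elements did. At an unadjusted p below 0.05 there was 1 of the 9, beside 5.64% of all elements. It was RPL13A element 173, at -0.050 ± 0.023 (adjusted p = 0.856). RPL6 element 240 stood at -0.057 ± 0.027 (adjusted p = 0.884), RPLP1 at -0.021, RACK1 at -0.020 and RPL13A element 219 at -0.015. RPL6 element 795, PABPC1, RPSA and RPL28 lay between -0.003 and 0.007. The 3 comparisons share the pool of day -7, so that like values in them are not independent.

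**Figure D3:**
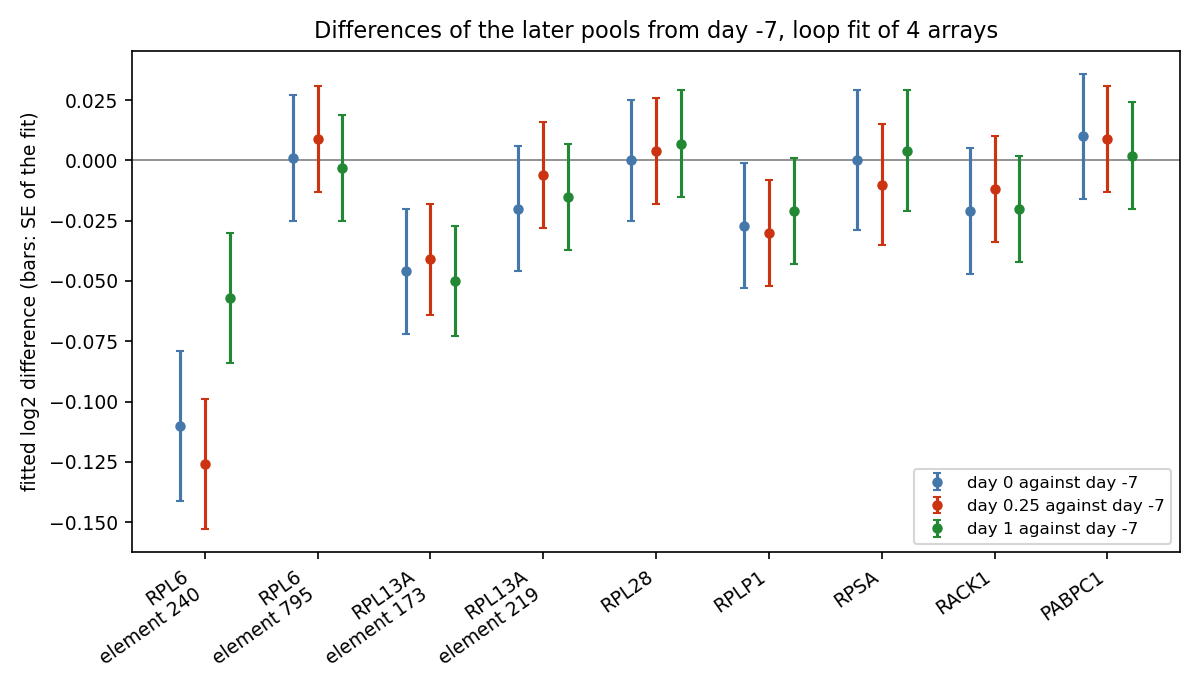
Fitted log2 difference of the pools of day 0, day 0.25 and day 1 from that of day -7 (colours) for the 9 translation elements, with bars for the SE of the fit over 4 arrays. RPL6 element 240 stands at -0.110, -0.126 and -0.057, RPL13A element 173 between -0.050 and -0.041, and the other 7 elements between -0.030 and 0.010.

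Among the later pools no element of any gene passed with limma (0% called), and 4, 6 and 42 of all elements (0.309%, 0.463% and 3.24%) had an unadjusted p below 0.05 for day 0.25 against day 0, day 1 against day 0 and day 1 against day 0.25. Of the 9 translation elements, 0 were below it in the first, 0 in the second and 1 in the third of these. That 1 was RPL6 element 240, at 0.069 ± 0.031 (adjusted p = 1). For day 1 against day 0 it stood at 0.053 ± 0.027, and the other 8 elements lay between -0.008 and 0.007. For day 0.25 against day 0 the members lay between -0.017 and 0.015. The moderated F test across the pools called 0.541% of all elements and none of the 9. RPL6 element 240 ranked 25th of 1295 by its p (adjusted p = 0.208), and the next member, RPL13A element 173, ranked 171st.

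The loop gives the difference of a hybridised pair of pools in another way, from the other 3 arrays. For every pair, the gap between this value and the direct one is the size of the element's sum around the loop. The pairs therefore restate that sum and are not separate checks. For day 1 against day -7 the direct array gave negative values for 7 of the 9 elements, with a median of -0.023, and the other 3 arrays gave positive values for 6, with a median of 0.006. The sign was the same in 3 of the 9 elements (43.9% over all elements). RPL13A element 173 kept it, at -0.060 directly and -0.019 by the other arrays, as did RPL6 element 240 at -0.026 and -0.150. RPSA stood at 0.027 directly and at -0.067 by the other arrays, and RACK1 at -0.027 and 0.001. For day 0.25 against day -7 the sign was the same in 4 of the 9 elements (53.1% over all elements), among them RPLP1 at -0.021 and -0.057 and RACK1 at -0.005 and -0.033. For day 1 against day 0 it was the same in 2 of the 9 (43.2% over all elements), and for day 0.25 against day 0 in 3 of the 9 (41.0% over all elements).

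The arrays were also tested singly with limma across the 3 spots that make up each element, so that the error is that of spots within 1 array and not of pools. On the -7/1 array, 42.2% of all elements passed at an adjusted p of 0.05, 21.1% with positive and 21.1% with negative ratios. There 6 of the 9 translation elements passed, 5 positive and 1 negative, which is given as a description because elements of 1 gene share their target and so many elements of the array passed. The positive ones were RPL13A element 173 (0.060 ± 0.006, SE over spots, adjusted p = 0.0132), RPLP1 (0.030 ± 0.003, adjusted p = 0.0133), RACK1 (0.027 ± 0.003, adjusted p = 0.0153), RPL6 element 240 (0.026 ± 0.003, adjusted p = 0.0149) and RPL13A element 219 (0.023 ± 0.003, adjusted p = 0.0202), and the negative one was RPSA (-0.027 ± 0.004, adjusted p = 0.0163). RPL6 element 795 (0.011, adjusted p = 0.148), PABPC1 (0.003, adjusted p = 0.512) and RPL28 (-0.004, adjusted p = 0.611) did not. The 2 elements of RPL13A thus passed with the same sign, whereas of RPL6 only element 240 did, and the difference between its elements was not tested. With any 1 spot of each element left out, no element of the array passed, and 6 of the 9 members then had an unadjusted p below 0.05, where 39.4% of all elements without spot 1, 42.5% without spot 2 and 41.7% without spot 3 did.

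On the other 3 arrays no translation element passed this test with limma. The share of all elements called was 0.0772% on the 1/0 array, and 0% on the 0.25/-7 array and on the 0/0.25 array. At an unadjusted p below 0.05 there were 3 members on the 1/0 array (RPSA, RPL6 element 240 and RPLP1), the same 3 on the 0/0.25 array, and 0 on the 0.25/-7 array. The share of all elements below it was 19.6% on the 1/0 array, 23.3% on the 0/0.25 array and 19.6% on the 0.25/-7 array. RPSA had the lowest p of the members on the 1/0 array (adjusted p = 0.143) and on the 0/0.25 array (adjusted p = 0.145).

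Other genes of translation were taken from a list of ribosomal proteins, translation factors, tRNA synthetases, ribosome assembly, signal recognition and translational control. The array held 15 elements of 14 such genes, and 14 elements were complete on all arrays. The element of the initiation factor EIF5 lacked a value on the 0.25/-7 array. None of the 14 passed with limma for day 0, day 0.25 or day 1 against day -7 (1 each at an unadjusted p below 0.05, beside 6.02%, 12.1% and 5.64% of all elements), and their medians were -0.004, 0.000 and -0.004. For day 0.25 against day -7, 7 were positive and 7 negative. The largest differences there were those of the mitochondrial ribosomal protein MRPL41 (0.060 ± 0.024 at element 303), the stress-induced phosphatase subunit PPP1R15A (-0.044), the translocon protein TRAM1 (0.042), the rRNA methyltransferase METTL5 (-0.038), the synthetase scaffold AIMP1 (-0.028) and the nucleolar NOP53 (-0.017), with adjusted p from 0.293 to 0.925. MRPL41 has a second element, at -0.011 ± 0.024, so its elements differed in sign as those of RPL6 did, although this value is below its SE. On the 0.25/-7 array itself, 11 of the 26 genes with exactly 2 elements had the same sign in both. On the -7/1 array, 11 of the 15 passed the test over spots, 6 positive and 5 negative. There 42.2% of all elements passed, 21.1% positive and 21.1% negative. The error in that test is that of spots within 1 array, and with any 1 spot left out no element passed. Like RPSA, the ribosome assembly factor NOP53 and the PABPC1 inhibitor PAIP2 had all 12 spots negative. They were 2 of the 14 complete elements, while 41 of all 1281 elements with 12 spots (3.2%) had 1 sign throughout. Their ratios were -0.056, -0.038, -0.040 and -0.021 for NOP53, and -0.028, -0.037, -0.038 and -0.015 for PAIP2, in the order of the arrays. Ratios of 1 sign on every array cannot add up to 0 around the loop. In the array's list PAIP2 is element 208, NOP53 element 209 and RPSA element 220. The members listed close to RPSA, RPL13A element 219, RPL28 (element 222) and RPLP1 (element 226), had ratios of both signs. The cause of the sign shared by RPSA, NOP53 and PAIP2 was not tested.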

How the data were processed

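Two-channel arrays of 4 pools of bovine neutrophil RNA were used, as 1 value per spot and array. The deposited values are log10 ratios. Their medians over spots were 0.00139, 3e-07, -0.000782 and 8.73e-05 on the 0.25/-7, 1/0, -7/1 and 0/0.25 arrays, near 0, and the direction of the ratios stays unknown. Raised to base 10, 99.8% to 100% of the values of each array fall on multiples of 0.0001 (tolerance 2% of the last decimal), against 3.52% to 3.99% when read as log2. The sources used here do not give the background correction, the normalisation, the numerator or the dyes. The deposited log10 values were multiplied by the log2 of 10, the 3 spots of an element were averaged, and the median element of each array was set to 0. Differences were fitted with limma 3.58.1 in R 4.3.3 over the 4 arrays, with 1 residual degree of freedom per element before moderation. The 1 element without a value on the 0.25/-7 array was left out, so 1295 were tested. For single arrays the mean of the spots was tested against 0 where at least 2 spots had a value. The fits were checked on simulated data with the same spread for all arrays and spots, which does not cover the unequal spread of the real ones. Names came from the platform annotation, updated by gene ID to the bovine RefSeq table (assembly ARS-UCD2.0); all 9 member elements matched by gene ID. No sequence or coordinate of a member was used here.

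Every member element is reported. Of the other translation genes the 6 with the largest absolute difference for day 0.25 against day -7 are named, and for RPL6 and RPL13A the 3 nearest profiles. The members and lists were chosen with earlier results of these data known. Alternatives were the sign of each array, each array or spot left out, the median of spots, no centring, equal spread, a running median and array weights. Plots were made in Python 3.11.15 (matplotlib 3.10.9).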

Additional observations from a re-analysis of the deposited data

How the results depend on the processing

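For day 0.25 against day -7 the count of translation elements past the threshold was 1 as reported, with the median of the spots, without spot 2 and with the sign of the 1/0 array turned. It was 0 with the sign of the 0.25/-7 array, the -7/1 array or the 0/0.25 array turned, without spot 1 or 3, without centring, with equal spread, after the running median and with weighted arrays. The element concerned, RPL6 element 240, stood at 0.110 (adjusted p = 0.752) with the sign of the 0.25/-7 array turned and between -0.158 and -0.033 with 1 array left out. The count of the F test was 0 in every setting but 1, the sign of the 1/0 array turned, where it was 1 (RPL6 element 240, adjusted p = 0.0401). The counts of the other comparisons stayed at 0 in all settings run. On the -7/1 array the 6 elements past the threshold over spots became 0 with spot 1, 2 or 3 left out, where no element of any gene passed, and 5 after the running median. A test of 2 spots has 1 residual degree of freedom and less power for every element, so this loss does not single out the members. Their lowest adjusted p in that test was 0.0841, 0.0757 and 0.0712 without spot 1, 2 and 3. Of 216 values of the 9 elements against day -7 under the settings other than signs and arrays, 202 did not change sign. With an array left out 91 of 108 did not, and with a sign turned 82 of 108. A change was counted only where the rounded values had opposite signs. For day 0 against day -7, RPL28 and RPSA stood at 0.000 as reported, so none of their values there could count as changed. RPSA stood at 0.047 or -0.047 there with an array left out. RPL6 element 240, RPL13A element 173, RPLP1 and RACK1 changed sign in none of the settings other than signs and arrays. The cause of these changes was not tested. With 1 array left out there is no residual degree of freedom and no test. No paired analysis was possible because each array is the single one of its pair of days and each day has 1 pool. That each pool lies on 2 arrays is already part of the loop fit. Differences of the size most members show, below their SE, were not detectable with 4 arrays.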
